A study of Mus musculus with 4 samples.

Results

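Cytosolic ribosomal protein genes were followed in sciatic nerve RNA of 6 month old mice. A gene was taken as a member when its symbol was Rpl or Rps with a number, an optional letter, an optional digit and an optional l, or was Rplp0, Rplp1, Rplp2, Rpsa or Fau, and -ps symbols were left out. The rule found 90 of the 50593 genes listed. Of these, 78 are standard genes of the ribosome, 46 of the large subunit and 32 of the small subunit, 10 carry a name of the -like kind, and Rps3a2 and Rps3a3 are annotated as processed pseudogenes of Rps3a1.

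The samples are 4 sciatic nerve libraries from mice of strain 129S1/SvImJ, 2 labelled HSF V30M TTR and 2 of the control group, here called HSF V30M and HSF WT. Mice of both groups carry a heterozygous deletion of Hsf1, the gene of heat shock factor 1. HSF V30M mice carry in addition the transgene for human transthyretin (TTR) with the V30M mutation, on a background null for the endogenous Ttr. The study compared the groups to ask how the chemokine response of the nerve differs in this model of TTR amyloidosis. The methods give n = 4 for sequencing without saying whether that is per group.

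The deposited table holds 1 value per gene and group, the authors' Cuffdiff estimate in fragments per kilobase of transcript scaled to depth (FPKM). Since mice were pooled in its FPKM, a spread over mice cannot be computed from it. The authors' own test columns were not used, so no test is given here, and a difference is one between these pooled values. Ratios are log2((HSF V30M + 1) / (HSF WT + 1)), a scale that understates the change of low genes. A gene is called past the fold where this ratio reaches 1.5-fold in either direction, among genes whose mean FPKM over the groups is 1 or more. Hsf1 had 7.94 FPKM in HSF V30M and 14.95 in HSF WT. Mouse Ttr had 6.10 FPKM in the group labelled HSF V30M, where it should be null, and 0 in HSF WT. Reads of the human transgene cannot be told from reads of mouse Ttr in this table, so HSF V30M and HSF WT mean the groups as labelled throughout.

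Ribosomal proteins clothe the ribosomal RNA of the small and the large subunit, and most of them are needed in equal number for each ribosome. Their mRNAs are short, abundant and stable, begin with a run of pyrimidines (the 5′ TOP motif), and are translated under control of the mTORC1 kinase pathway through the binding protein Larp1. In peripheral nerve, Schwann cells translate large amounts of myelin protein, and axons and Schwann cells are both known to hold ribosomes.

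Ribosomal protein genes had nearly the same total in the groups. The 90 members summed to 27469 FPKM in HSF V30M and to 27829 in HSF WT, a ratio of 0.987. The 85 members annotated as protein-coding held 7.67% of the FPKM of all protein-coding genes in HSF V30M and 7.61% in HSF WT. Over the 86 members with a mean of 1 or more, the median FPKM was 273 and 288. The 4 members under that minimum are Rpl3l, Rpl39l, Rpl10l and Rps12l1.

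Most members lay close to a ratio of 0. The median log2 ratio of these 86 members was -0.06, with an interquartile range from -0.25 to 0.13, and 35 were above 0 and 51 below. Over all 15620 genes of that minimum the median was 0.0030, with quartiles at -0.22 and 0.23. For the 78 standard genes the median was -0.05 and the quartiles were -0.22 and 0.13, and 46 of them lay within 0.25 of 0 in either direction.

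Past the fold were 8 of the 86 members, or 9.30%, with 6 higher in HSF V30M and 2 lower. Of all 15620 genes, 16.7% were past the fold, 8.22% higher and 8.44% lower. Among protein-coding genes the share was 10.3%, and among the 498 protein-coding genes that average 100 FPKM or more, a level at which 70 of the 78 standard genes lie, it was 9.44%. Without the members it was 9.58% of 428 such genes, 15 higher and 26 lower. Of the 70 standard genes at that level, 6 were past the fold (8.57%), all of them higher in HSF V30M. The share past the fold in either direction was thus near that of other protein-coding genes of like level, and the split by direction was not tested.

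**Figure D1:**
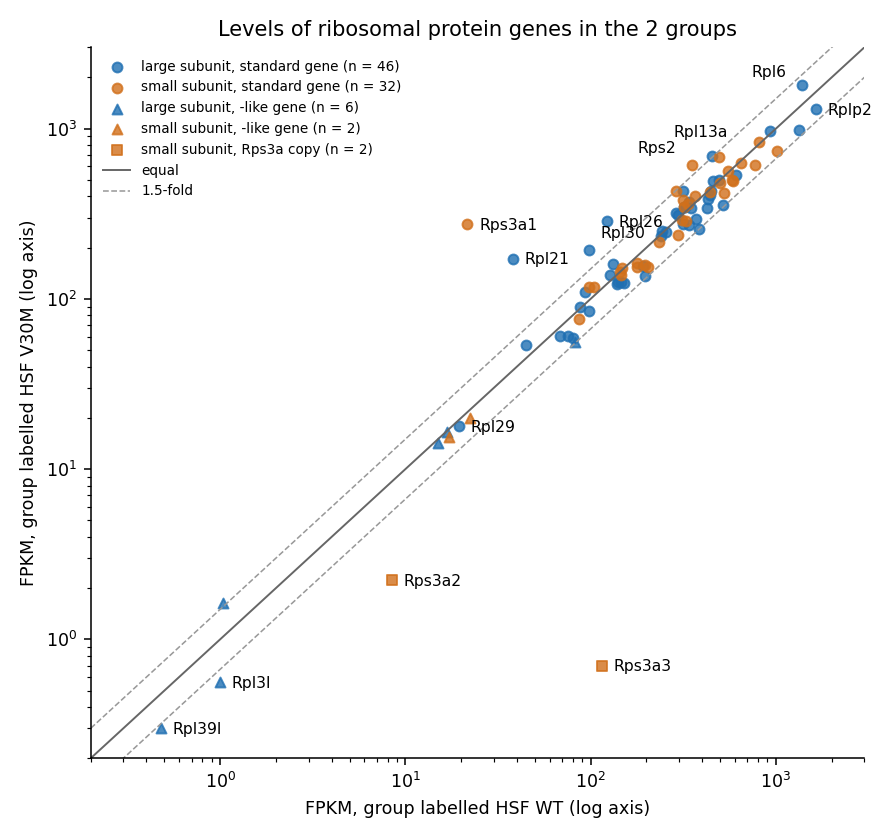
FPKM of each ribosomal protein gene in the group labelled HSF WT (horizontal, log axis) against the group labelled HSF V30M (vertical, log axis), 1 point a gene and 1 pooled value a group, with lines for equality and for 1.5-fold. Rpl10l and Rps12l1, at 0 in both groups, are not drawn; most points lie along the line of equality, Rps3a1 and Rpl21 lie above it and Rps3a3 and Rps3a2 below.

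Standard genes spanned an 85.6-fold range of level, from 18.6 mean FPKM for Rpl29 to 1594 for Rpl6, with a median of 305. Rpl6 had 1798 FPKM in HSF V30M and 1390.2 in HSF WT, a ratio of 0.37. Next in level were Rplp2 with 1295 and 1638 FPKM, Rpl41 with 986 and 1336, and Rplp1 with 970.5 and 924. The rank order below these was Rps15 (736 and 1015), Rps27 (832 and 813), Rps19 (615 and 772), Rps18 (631 and 649.6), Rps15a (685 and 491) and Rpl13a (689 and 454), each with HSF V30M given before HSF WT. None of these 10 but Rpl13a was past the fold, and neighbours in this order cannot be told apart without values per mouse.

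Large and small subunit genes did not stand apart. The 46 large subunit genes had a median ratio of -0.05, with 20 above 0 and 26 below, and the 32 small subunit genes a median of -0.05, with 14 above and 18 below. The difference of the medians was 0.0080 on the log2 scale. It turned to -0.03 when genes that host a small nucleolar RNA were left out. Sums were 15749 and 15980.4 FPKM for the large subunit, and 11593 and 11569 for the small one, with HSF V30M given before HSF WT.

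**Figure D2:**
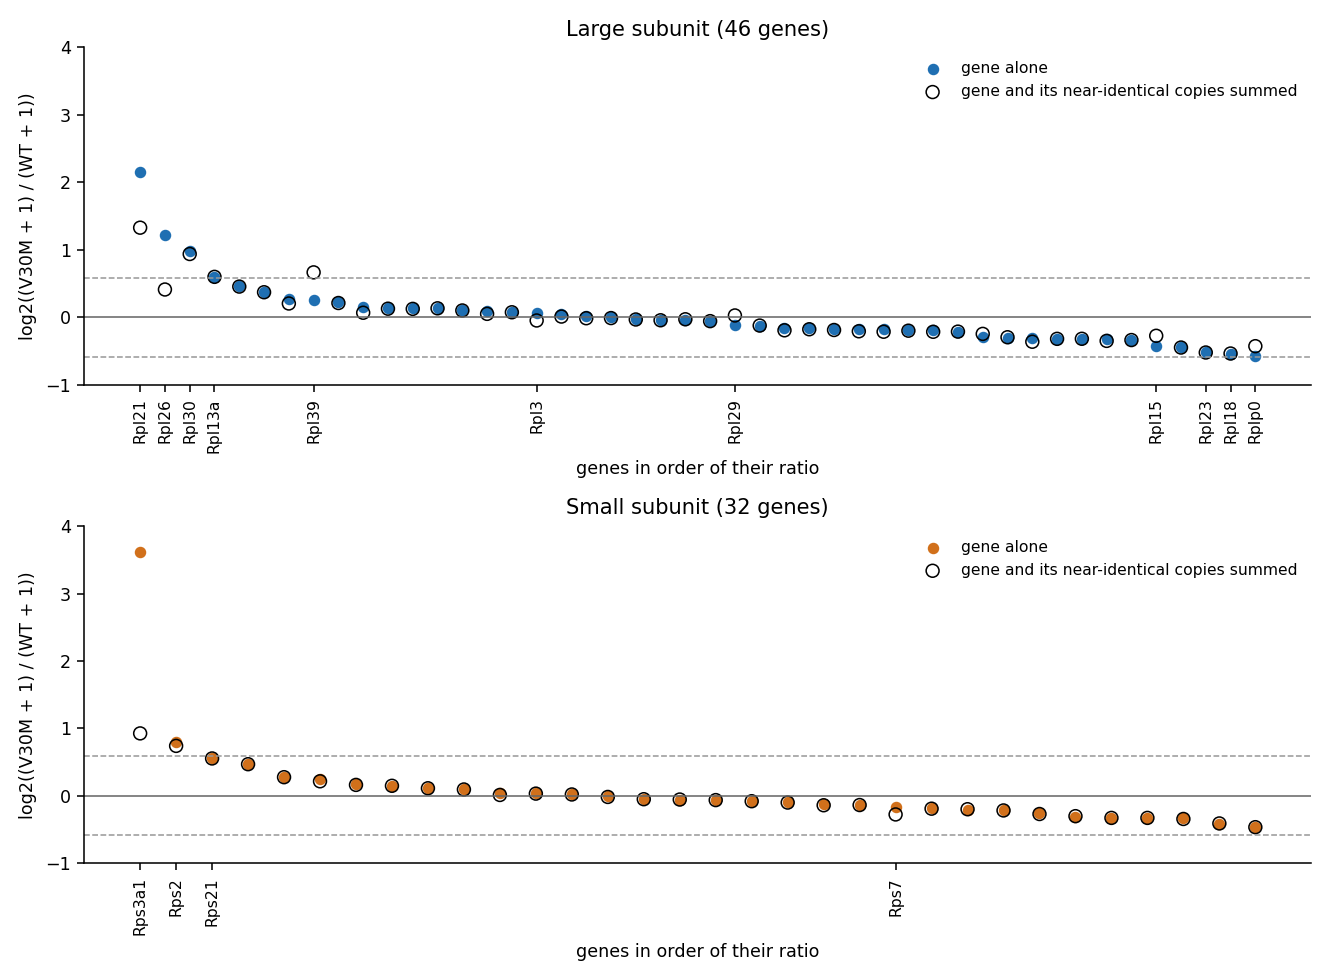
Log2((V30M + 1) / (WT + 1)) of the 78 standard genes, in order of the ratio, for the large subunit (top) and the small subunit (bottom). Filled points are the gene alone, open circles the gene with its near-identical copies summed, and dashed lines mark 1.5-fold, with names for genes whose ratio is 0.5 or more from 0 or moves by over 0.1; Rps3a1 moves from 3.61 to 0.93 and Rpl26 from 1.21 to 0.41.

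The largest ratio belonged to Rps3a1, the gene of small subunit protein eS1 (chr3:86137940-86142702 of GRCm38, minus strand, 6 exons). It had 275 FPKM in HSF V30M and 21.6 in HSF WT, a 12.8-fold difference and a log2 ratio of 3.61. The smallest ratio belonged to Rps3a3, a processed pseudogene of Rps3a1 within the gene Pde4d (chr13:108670603-108671397, plus strand). It had 0.70 FPKM in HSF V30M and 115 in HSF WT, a log2 ratio of -6.09. The gene and its copy were thus opposite in the groups.

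The estimates of this family rest on few differing bases. Over 791 aligned coding bases Rps3a3 differs from Rps3a1 at 8, an identity of 99.0%, and the third family member, Rps3a2 (chr14:88123017-88123808, minus strand), differs from Rps3a1 at 4 of 792. A read that covers none of these bases fits each of the 3 genes. The stretches below are parts of the coding sequence of each member with its copy, shown because they hold a base, in capitals, at which the pair differ.

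Rps3a1, chr3:86141363-86141392, minus strand, coding bases 201 to 230: tgaagtgagccttgcTgatctacagaatga

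Rps3a3, chr13:108670803-108670832, plus strand: tgaagtgagccttgcCgatctacagaatga

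Rpl26, chr11:68903283-68903312, plus strand, coding bases 273 to 302: tggcacaaccgtccaTgtgggcatccaccc

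Gm15772, chr5:3236703-3236732, plus strand: tggcacaaccgtccaCgtgggcatccaccc

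Rpl21, chr5:146835654-146835683, plus strand, coding bases 333 to 362: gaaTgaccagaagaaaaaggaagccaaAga

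BC004004, chr17:29308470-29308499, plus strand: gaaCgaccagaagaaaaaggaagccaaGga

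Taken as a sum, the 3 Rps3a members had 278 FPKM in HSF V30M and 145 in HSF WT, a 1.92-fold difference. Rps3a1 held 99.0% of it in HSF V30M and 14.9% in HSF WT, while Rps3a3 held 0.252% and 79.3%, and Rps3a2 held 0.798% and 5.82%. With 5 further copies added, the ratio of the family was 0.93, still past the fold. Read back through the worth of 1 fragment, the Rps3a3 value stands for about 9 to 11 fragments in HSF V30M and 1057 to 1425 in HSF WT, and the Rps3a1 value for about 4736 to 5409 and 258 to 349. Counting error is therefore small beside the difference, but the share of each copy depends on how the reads were assigned, and that share was not tested against sequence, since reads were not used here.

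Rpl26, the gene of large subunit protein uL24, was likewise higher in HSF V30M while a copy of it was lower. How reads were assigned between the gene and this copy was not tested. It had 286 FPKM in HSF V30M and 123 in HSF WT, a ratio of 1.21. Its processed pseudogene Gm15772 on chromosome 5 (99.5% identity, 2 differences in 435 bases) had 1.16 and 89.9 FPKM. With its 11 copies summed, Rpl26 had 292 and 219 FPKM, a ratio of 0.41, which is no longer past the fold.

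For Rpl11, which forms the 5S particle with Rpl5, the copy differed and the gene did not. Rpl11 had 320.3 FPKM in HSF V30M and 287 in HSF WT, a ratio of 0.16, and its pseudogene Gm10036 (99.3% identity) had 0.12 and 16.8. Rpl5 had 60.6 and 68.7 FPKM. Rpl3, whose product lies near the peptidyl transferase centre, had 309 and 294 FPKM, and its copy Rpl3-ps1 on the X chromosome 19.98 and 45.7. In these 4 families the copy was lower in HSF V30M.

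Rpl21 had 172 FPKM in HSF V30M and 37.9 in HSF WT, a ratio of 2.15 (chr5:146832890-146837032, plus strand). It has 70 near-identical copies, more than any other member. The copy of highest level, the protein-coding gene BC004004 (98.5% identity, 7 differences in 480 bases), had 26.5 and 26.03 FPKM. That gene spans chr17:29268788-29314065 and its FPKM is counted whole in the sum below. Part of this FPKM may come from outside the matching bases, which was not tested. Another of the 70 copies, the pseudogene Gm10045 (chr17:29308138-29308620), lies within BC004004 on the same strand. It is counted apart, with 0 FPKM in HSF V30M and 0.399 in HSF WT. All 70 copies summed to 45.7 and 48.3 FPKM, and with them Rpl21 had 218 and 86.3 FPKM and a ratio of 1.33. The copies of Rpl21 therefore did not show the opposite difference that Rps3a3 and Gm15772 did.

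For the remaining members past the fold, adding copies moved the ratio by less than 0.1. Rpl30, whose product can bind its own mRNA in yeast, had 195 FPKM in HSF V30M and 98.1 in HSF WT, a ratio of 0.98, and 0.94 with 13 copies. Rps2, of the mRNA entry channel of the small subunit, had 613 and 353 FPKM, a ratio of 0.79, and 0.74 with 41 copies. Rpl13a, whose product is also known as part of an inhibitor complex of translation in myeloid cells, had 689 and 454 FPKM, a ratio of 0.60, just inside the fold. Rps21, with 428 and 289 FPKM and a ratio of 0.56, lay just outside it. Rps2 is overlapped on the other strand by Snhg9 and Rpl30 by D730044K07Rik, and whether strand was used in counting is not given in the sources used here. Rpl13a is overlapped on its own strand by the protein-coding gene Gm45713. That gene matches 97.7% of the coding sequence of Rpl13a at 100% identity and is listed at 0 in both groups. How reads were assigned between the 2 was not tested.

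Rpl39 was not past the fold alone but was with its copies. The gene had 53.4 FPKM in HSF V30M and 44.7 in HSF WT, a ratio of 0.25, and its 14 copies summed to 24.4 and 3.99 FPKM, giving 0.67 in all. The 5 copies with a value above 0 match a coding sequence of 153 bases. That is shorter than the 201 bases inferred here to be taken off a transcript's length in the estimate. The lengths of the copies' own transcripts, which the estimate would use, are not given here. The FPKM of these copies, and so the ratio of Rpl39 with them, is uncertain. After summing, 6 of the 78 standard genes were past the fold, the same number as before, with Rpl39 in and Rpl26 out.

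**Figure D3:**
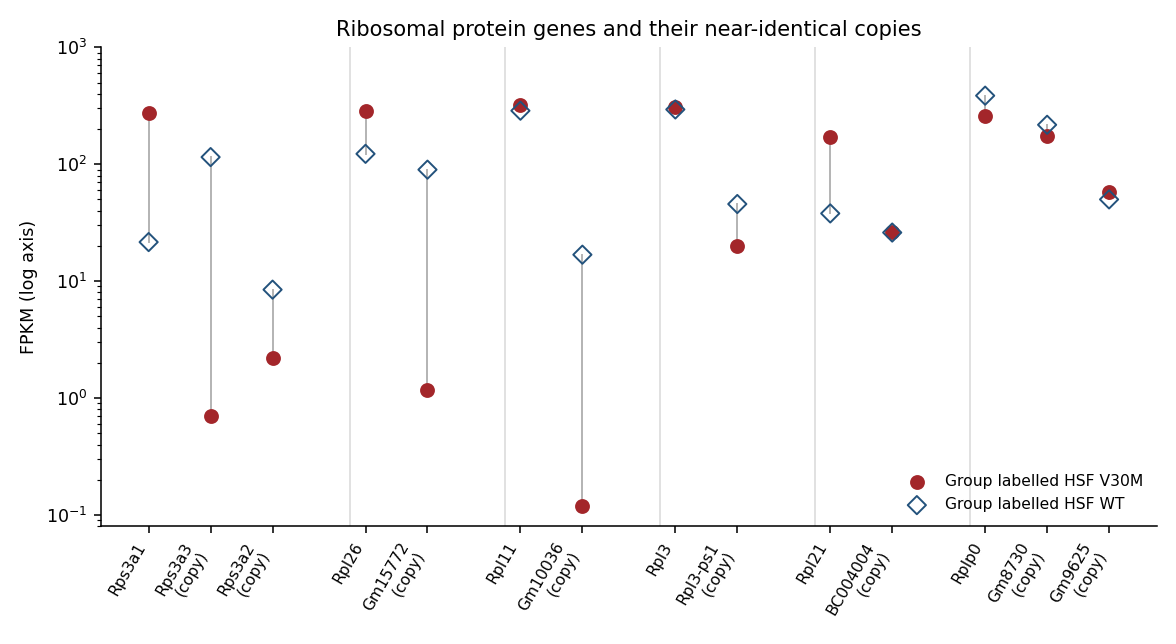
FPKM (log axis) of 6 ribosomal protein genes and the near-identical copies named in the text, with a filled circle for the group labelled HSF V30M and an open diamond for the group labelled HSF WT, 1 pooled value each. Rps3a1 and Rps3a3 stand in opposite order in the groups, Gm15772 and Gm10036 are low in HSF V30M, and BC004004 is at 26.5 and 26.03.

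At the low end lay Rplp0, the scaffold protein of the acidic stalk of the large subunit and a gene often used as a reference in PCR. It had 258 FPKM in HSF V30M and 386 in HSF WT, a ratio of -0.58, just outside the fold. Its pseudogenes Gm8730 (98.7% identity) and Gm9625 (97.4%) had 174 and 218 FPKM and 58.0 and 50.0 FPKM. With 4 copies summed the ratio was -0.43. Its stalk partners were split, with Rplp1 at a ratio of 0.07 and Rplp2 at -0.34.

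Next in the order came Rpl36al with 55.5 FPKM in HSF V30M and 82.1 in HSF WT, a ratio of -0.56. Rpl18 had 356 and 518 FPKM, a ratio of -0.54, and Rpl23, whose product uL14 lies at the interface of the subunits, 137 and 197 FPKM, a ratio of -0.52. Rps3a2 had 2.22 and 8.45 FPKM, a ratio of -1.55, and is the second of the 2 members past the fold on the low side. Both of these members are pseudogenes, and no standard gene was past the fold in that direction.

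Of the genes whose loss causes Diamond-Blackfan anaemia in humans, the 6 given in this paragraph lay between the dashed lines of the ratio plot. They are not a full list of such genes, and Rpl26, past the fold alone, is not among them. Rps19, the gene most often affected, had a ratio of -0.33. Rps24 had 154 FPKM in HSF V30M and 177 in HSF WT and a ratio of -0.20, and Rps26 had 144 in each. Rpl35a had 125 and 141 FPKM, a ratio of -0.17. Together with Rpl5 at -0.18 and Rpl11 at 0.16, 4 of these 6 were below 0, as were 51 of the 86 members.

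The fusion genes, each of which makes a ribosomal protein joined to a ubiquitin-like domain, differed little. Fau, which makes eS30 joined to Fubi, had 383 FPKM in HSF V30M and 314 in HSF WT, a ratio of 0.29. Rps27a, which makes eS31 joined to ubiquitin, had 215 and 234 FPKM, a ratio of -0.12.

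Paralogues of the -like kind were low beside their partners. Rpl36al came nearest, with 68.8 mean FPKM against 130.1 for Rpl36a, which is 1.89-fold more, at 87.7% coding identity. Rps27l had 19.9 FPKM in HSF V30M and 22.4 in HSF WT, and Rps27 had 38.9-fold more. Rpl22l1 had 16.5 and 16.8 FPKM, against 248 and 255 for Rpl22. Rpl7l1 had 14.3 and 14.97, against 345 and 324 for Rpl7. Rps4l, annotated as a transcribed processed pseudogene, had 15.4 and 17.3, against 163 and 178 for Rps4x.

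The paralogues that are known for one tissue were near or at 0. Rpl3l, the paralogue of striated muscle, had 0.56 FPKM in HSF V30M and 1.001 in HSF WT, 386-fold less than Rpl3 on the mean. The skeletal muscle marker list was lower in HSF V30M in 9 of 10 genes and summed to 51.6 and 187 FPKM, and its part in the Rpl3l value was not tested. Rpl39l, known from testis, had 0.30 and 0.48 FPKM, and Rpl10l, also known from testis, is listed at 0 in both groups. Of the annotated pseudogenes among the -like members other than Rps4l, Rpl6l had 1.64 and 1.03 FPKM, and Rps12l1, which has 100% identity to the coding sequence of Rps12, is listed at 0 in both. The 6 -like members that passed the minimum had ratios from -0.56 to 0.38, 5 of them below 0, and none was past the fold.

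Near-identical copies of members as a class were lower in HSF V30M. A copy was taken as a gene of the table whose transcript matched a member's coding sequence at 90% identity or more over at least 80% of its length. There were 860 such genes, 837 of them processed pseudogenes and 18 protein-coding, and 75 of the 78 standard genes had at least 1. In all 296 were listed at 0 in both groups, and 142 passed the minimum. Of these 142, 47 were above 0 and 95 below, with a median ratio of -0.31, and 14 were past the fold on the high side and 48 on the low side. The 461 other processed pseudogenes above the same minimum showed a median of -0.07, with 72 high and 104 low. Copies summed to 793 FPKM in HSF V30M and 1096 in HSF WT, which is little beside the sums of the members.

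Many ribosomal protein genes carry small nucleolar RNAs in their introns, which guide modification of ribosomal RNA and are released when the host transcript is spliced. On the same strand, 30 of the 78 standard genes held at least 1 of 58 annotated small nucleolar RNAs. Of the 6 standard genes past the fold, 5 were such hosts (Rps3a1, Rpl21, Rpl30, Rps2 and Rpl13a), a point noticed after their values were seen. Past the fold were 5 of the 30 hosts (16.7%) and 1 of the 48 other standard genes (2.08%). The median ratio was -0.03 in hosts and -0.06 in the others. Hosts summed to 11082.5 FPKM in HSF V30M and 10471.7 in HSF WT, and the others to 16259.4 and 17078. Whether hosts differ from the other genes was not tested.

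The small RNAs themselves had higher values in HSF V30M. Of the 53 that passed the minimum, 42 were above 0 and 11 below, with a median ratio of 0.77. The 315 other small nucleolar RNAs of the table had a median of 0.68, so those in ribosomal protein genes were not set apart from the class. In Rps3a1, Rnu73b had 6610.4 FPKM in HSF V30M and 1861 in HSF WT, and Snord73a had 1743 and 1263. In Rpl13a, Snord35a had 14322 and 6806 FPKM and Snord34 had 3886 and 3341. In Rpl30, Gm24523 had 1488 and 1479 FPKM, where the host was 1.99-fold apart. These RNAs are 65 to 203 bases long. That is about as long as or shorter than the 201 bases inferred to be taken off a transcript's length. Their FPKM is therefore uncertain and cannot be set beside that of the hosts.

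**Figure D4:**
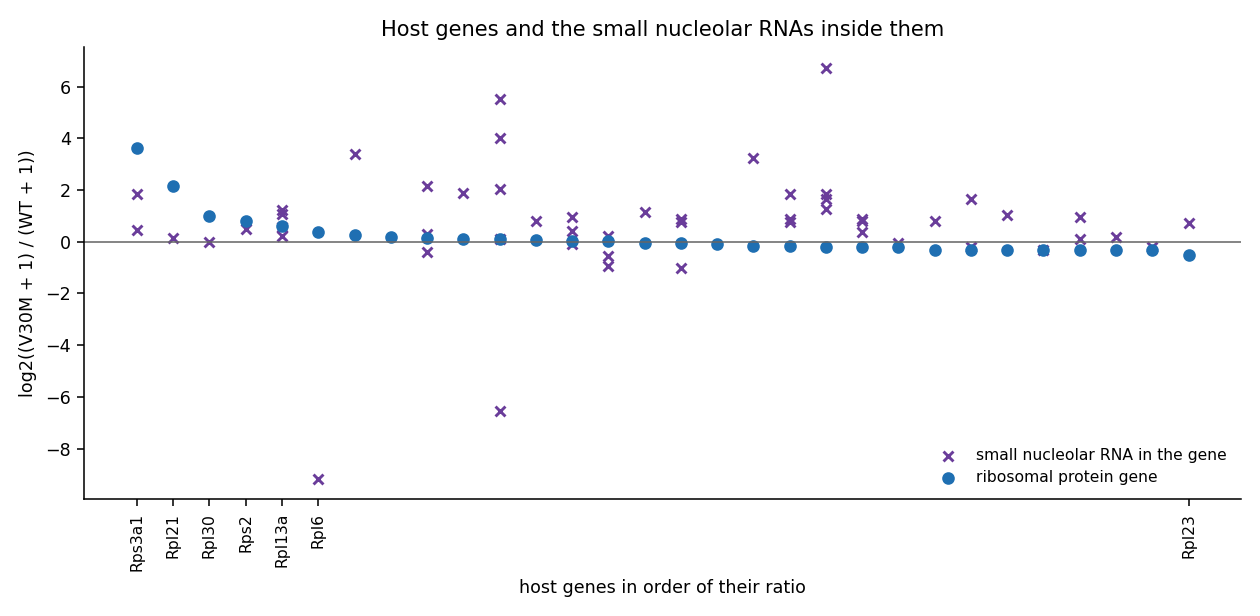
Log2((V30M + 1) / (WT + 1)) for the 30 standard genes that host a small nucleolar RNA (filled points, in order of their ratio, named where 0.35 or more from 0) and for each hosted RNA of mean FPKM 1 or more (crosses). Of 53 crosses 42 lie above 0, while the hosts have a median of -0.03; Rpl6 holds the lowest cross.

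The bases around the annotated start were searched for the pyrimidine run of 5′ TOP mRNAs. RefSeq promoters of GRCm38.p6 were at hand for 65 of the 90 members. An unbroken run of 8 or more C or T on the gene's strand, within 15 bases on either side of the annotated start, was found in 28 of these (43.1%) and in 13.9% of all 27025 genes with a promoter. Runs wholly before the annotated start, as in Rpl4, Rpl31 and Rps15a, were counted too, and these are not part of the transcript as annotated. The windows below run from 15 bases before to 15 bases after the start, with the longest run in capitals. The upper 4 were picked for long runs and belong to genes not past the fold. Short runs occur in such genes too, with 2 bases in Rpl24 and 3 in Rps15.

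Rpl7a, chr2:26910792-26910821, plus strand: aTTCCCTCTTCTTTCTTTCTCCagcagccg

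Rpl27a, chr7:109519180-109519209, plus strand: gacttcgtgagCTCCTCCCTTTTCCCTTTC

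Rpl35, chr2:39005117-39005146, minus strand: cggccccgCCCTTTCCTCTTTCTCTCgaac

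Fau, chr19:6057932-6057961, plus strand: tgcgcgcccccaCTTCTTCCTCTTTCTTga

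Rpl13a, chr7:45128731-45128760, minus strand: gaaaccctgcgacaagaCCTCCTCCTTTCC

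Rps2, chr17:24720048-24720077, plus strand: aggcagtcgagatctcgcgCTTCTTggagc

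Rpl26, chr11:68901551-68901580, plus strand: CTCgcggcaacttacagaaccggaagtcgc

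Rps3a1, chr3:86142654-86142683, minus strand: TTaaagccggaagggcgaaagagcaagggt

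The run was 21 bases in Rpl7a, 19 in Rpl27a, 18 in Rpl35 and 16 in Fau. Rpl7a had 232 FPKM in HSF V30M and 238 in HSF WT, Rpl27a 60.6 and 75.5, and Rpl35 85.2 and 97.5. The lower 4 windows belong to members past the fold, with runs of 13 bases in Rpl13a, 6 in Rps2, 3 in Rpl26 and 2 in Rps3a1. Among standard genes with a promoter, the 26 with a run had a median ratio of -0.12 and the 32 without one -0.05. Past the fold were 1 of the 26 and 3 of the 32. Rpl21 and Rpl30, also past the fold, had no promoter at hand. Annotated starts can lie some bases from the start in use, so a missing run says only that these letters are not in this window.

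Other lists of translation genes had medians between -0.14 and 0.05, on either side of the median of the standard ribosomal protein genes at -0.05. The 10 elongation factor genes had a median ratio of 0.01, and none was past the fold. Their highest were Eef1a2, the neuron and muscle form of elongation factor 1 alpha (4.98 FPKM in HSF V30M and 3.03 in HSF WT), and Eefsec, of selenocysteine insertion (10.2 and 7.71). Lowest were Eef1b2 (97.7 and 129), of the exchange factor complex, and Eef1e1 (4.24 and 5.08).

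Of 36 initiation factor genes that passed the minimum, 2 were past the fold on the high side and 4 on the low side, and the median was -0.07. The high ones were Eif2s3x, of the initiator tRNA carrier (32.9 and 17.7 FPKM), and Eif4a1, the helicase of cap-dependent initiation (245 and 148). The lowest were Eif2b4, a subunit of the exchange factor for eIF2 (35.9 and 107), with a ratio of -1.56, and Eif5b, of subunit joining (3.25 and 6.89), with a ratio of -0.89.

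The 41 ribosome biogenesis genes had a median of -0.14, with 12 above 0 and 29 below, and 1 past the fold. That gene was Pes1, which matures the large subunit RNA, with 10.8 FPKM in HSF V30M and 17.8 in HSF WT. Dkc1, the pseudouridine synthase, had 7.54 and 11.2 FPKM. Highest were Nop2, an RNA methyltransferase (10.5 and 7.55), and Nop56, of the small nucleolar RNA complexes (31.3 and 23.0).

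The 14 RNA polymerase I genes had a median of -0.10, and none was past the fold. Their lowest were the 2 largest subunits, Polr1b (5.37 and 8.11 FPKM) and Polr1a (10.8 and 15.5), and their highest Taf1b (5.94 and 4.86) and Taf1a (8.46 and 7.71), both of the promoter factor. The list of 15 other 5′ TOP and ribosome-bound genes had a median of -0.10, with 5 above 0 and 10 below. Npm1, a nucleolar chaperone, was the 1 past the fold, with 17.4 and 28.8 FPKM and a ratio of -0.70. Nap1l1 had a ratio of -0.41, Vim of 0.33 and Larp1 of 0.46. Rack1, which sits on the small subunit, had 237 and 229 FPKM.

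Of 18 mTORC1 and S6 kinase genes, 12 were above 0 and 6 below, with a median of 0.05. Akt1s1, which makes an inhibitory subunit of mTORC1, was past the fold with 19.1 FPKM in HSF V30M and 12.02 in HSF WT, and Larp1 came next with 16.4 and 11.6. The S6 kinase gene Rps6kb1 had 9 and 12.6 FPKM, and Rragb 3.95 and 5.37. Levels of mRNA say nothing of the activity of this pathway or of the translation of TOP mRNAs.

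**Figure D5:**
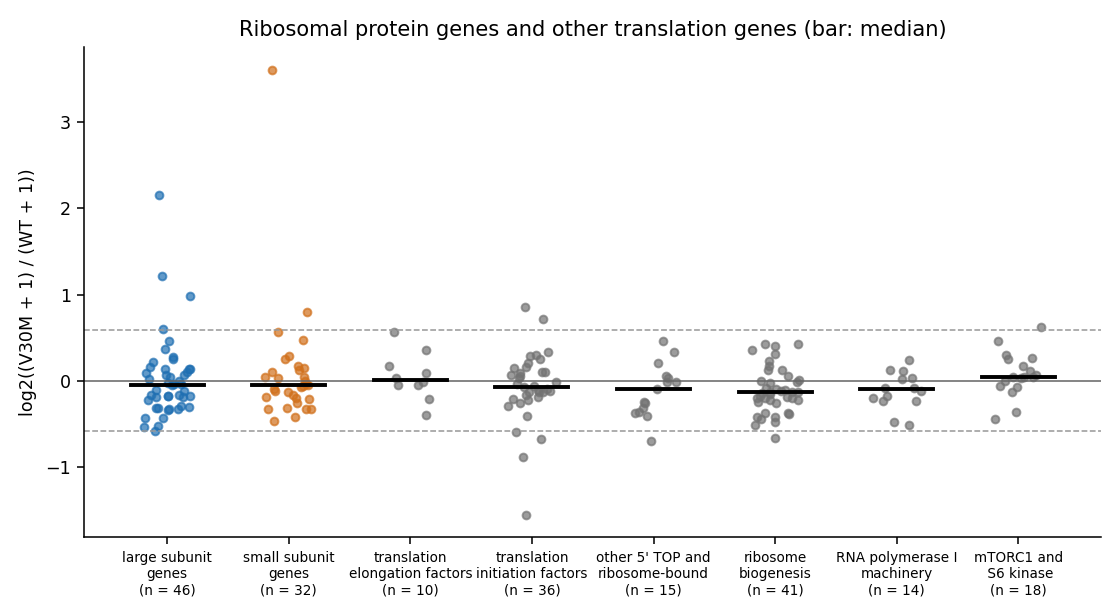
Log2((V30M + 1) / (WT + 1)) of the standard ribosomal protein genes by subunit and of 6 lists of other translation genes, 1 point a gene of mean FPKM 1 or more, with the median as a bar and dashed lines at 1.5-fold. Each median lies between -0.14 and 0.05.

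Markers of several cell types differed between the groups while the ribosomal protein genes in total did not. Schwann cell markers, which define the tissue, were higher in 6 of 12 genes and had sums of 13056 FPKM in HSF V30M and 11471 in HSF WT. B cell markers were lower in 8 of 8 genes (sums of 4.05 and 32.5 FPKM), T cell markers in 5 of 6 (4.18 and 14.8) and adipocyte markers in 6 of 6 (1250.2 and 1892). Erythroid markers were higher in 6 of 6 (291 and 101 FPKM) and neutrophil markers in 5 of 6 (104 and 30.8). Macrophage markers were lower in 4 of 6 (sums of 274 and 368 FPKM), fibroblast markers in 3 of 5 (1893 and 1980.1) and endothelial markers in 2 of 5 (112 and 113). No marker was at 0 in either group. Fewer cells of a type and less RNA per cell cannot be told apart in such bulk samples, and the part of these cells in the ratios of single ribosomal protein genes was not tested.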

How the data were processed

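RNA of the sciatic nerve was made into 2 HSF V30M and 2 HSF WT libraries for Ion Torrent sequencing. Per the submitters' notes, STAR, Cufflinks and Cuffdiff were used on GRCm38; their versions are not given in the sources used here. The authors deposited 1 table with decimal commas, which holds their FPKM per gene and group, and also a log2 fold change, test statistic, p-value, q-value and significance mark of their comparison. These last columns were not used. The 23 genes for which Cuffdiff marks the alignments as too many were dropped.

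Members, lists and tests were chosen with earlier results of these data known. Ratios used a pseudocount of 1, a minimum mean FPKM of 1 and a fold of 1.5. Genes named were the 10 members of highest mean, the 6 highest and 6 lowest ratios, stalk, fusion, 5S and Diamond-Blackfan genes, -like pairs, members under the minimum, and the 2 highest and 2 lowest of each translation list. Other genes, chiefly copies, small RNAs, and Rps21, Rpl39, Rpl7a, Rpl27a and Rpl35, were named after their values were seen. The lists are given whole by their counts. Some genes that the rule would name are not reported here.

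Transcripts were from GENCODE release M21 of GRCm38, which holds 50369 of the identifiers and lacks 224. Copies were found with BLAST+ 2.17.0 (blastn, E-value 1e-05) against the members' coding sequences, at 90% identity and 80% cover. Promoters were from RefSeq. Read totals are not in the table. In 10863 single-transcript genes, low FPKM values times effective kilobases (length less 201 bases) piled up at 0.0395 and 0.0451 in HSF V30M and at 0.048 and 0.0647 in HSF WT, taken as the worth of 1 fragment in each library. The 201 bases are not a stated setting but were inferred, as the offset that made the HSF WT values pile up most sharply. The HSF V30M steps are blurred by rounding to 2 decimals. Fragment numbers cover counting error only. Python 3.11.15, numpy 2.4.6, pandas 2.3.3 and matplotlib 3.10.9 were used. The calling step was run on simulated data, where 200 of 200 changed genes among 4225 were recovered. That run checks the working of the step only. The reliability of calls in the real values, which lack values per mouse, was not tested. The alternatives were a pseudocount of 0.1, a minimum of 5 or none, a fold of 2, median-of-ratios scaling, and leaving out -like members or hosts. Summing copies, leaving out the Rps3a genes and using protein-coding genes were added after seeing the data.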

Additional observations from a re-analysis of the deposited data

How the results depend on the processing

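No paired analysis was possible because values of single mice were pooled within each group before deposit, and leaving out a replicate could not be done either. The median ratio of the members stayed between -0.07 and -0.06 under each alternative run. A fold of 2 left 3 members on the high side (Rps3a1, Rpl21 and Rpl26) and 2 on the low side. Without members that host a small nucleolar RNA, 1 was left on the high side, Rpl26, since 5 of the 6 are hosts. With copies summed, or without Rps3a1, Rps3a2 and Rps3a3, 0 were left on the low side, since both low members are Rps3a copies. With a pseudocount of 0.1, 7 were on the high side, with Rpl6l added. Over all genes, 732 were higher and 646 lower under a minimum mean of 5, 621 and 616 with a fold of 2, and 639 and 676 among protein-coding genes, against 1284 and 1319. Summing copies moved the ratio of 9 of 83 members by more than 0.1, and a pseudocount of 0.1 moved 3 of 86, while scaling, with factors of 1.001 and 0.999, moved none. The limits are the lack of values per mouse, the unknown assignment of reads among copies, and the FPKM of short RNAs and short copies.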

Other observations

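Among copies with a mean FPKM of at least 1, 9 are listed at 0 in 1 group. The FPKM of short copies, such as those of Rpl39, is uncertain. The Rpl39 copies Gm14541, Gm28155 and Gm12013 had 5.66, 3.81 and 2.95 FPKM in HSF V30M and are listed at 0 in HSF WT, as are the Rplp1 copy Gm11942 (5.04), the Rps28 copy Gm3511 (2.59) and the Rps29 copy Gm10059 (2.13). The Rps29 copy Gm20620 (7.50), the Rps28 copy Gm10443 (4.93) and the Rps27 copy Gm15531 (3.06) are listed at 0 in HSF V30M. Copies of Rps28 and of Rps29 thus lay on both sides, while Rps28 itself had 153 and 205 FPKM and Rps29 404 and 364, neither past the fold.

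Of the small RNAs in members, Rpl4 held both high and low ones. Snord16a had 1.60 FPKM in HSF V30M and 241 in HSF WT, and Gm22455 had 761 and 187, while Rpl4 itself had 494 and 460.1. These genes were named after their values were seen.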
